A study of Mus musculus with 80 samples.

Results

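The comparison set livers of 6 mice given dichloroacetic acid (DCA) at 1 g/L in drinking water against livers of 6 control mice given none (0 g/L). DCA forms when water is chlorinated, and it blocks the kinases that switch off pyruvate dehydrogenase. All were male B6C3F1 mice, a hybrid strain, and their age is labelled as 4 weeks. The members were the frozen-tissue libraries of animals 49 to 54 (1 g/L) and of animals 3 to 8 (controls), 12 of the 80 libraries of the series, chosen by the dose and preparation in their labels. Each library came from 1 animal and about 20 mg of mixed-lobe liver collected in 1994, and total RNA was sequenced after removal of ribosomal RNA. The labels used here give neither the length of exposure nor the hour at which livers were collected. Frozen livers at 2 and 3.5 g/L (6 animals each) served to fit a common spread and to set the 1 g/L values beside higher doses.

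In rodent liver, peroxisome proliferators act through the nuclear receptor PPAR alpha, and the Cyp4a cytochromes, which hydroxylate fatty acids at the omega carbon, are its most sensitive read-outs. The liver also answers fasting and the daily rhythm of glucocorticoids: the glucocorticoid receptor and cyclic AMP signalling raise genes of gluconeogenesis such as Pck1, and the clock repressors Nr1d1 and Nr1d2 restrain the clock and lipid genes. The comparison addresses what was altered at a dose below those that raise Cyp4a14 and Cyp4a10 strongly.

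Total counts of the 12 libraries were close, 14539642 to 16890024. The sequencing lanes were not balanced over the groups: all 6 controls and animal 49 were in lane L5 of 1 run, animals 50 to 52 were in lane L6 of that run, and animals 53 and 54 were in another run. Libraries also differed in how their values ran with transcript base composition, both between lanes and among the controls within lane L5. Across 12463 genes, the rank correlation of a library's deviation from the control mean with the transcript's GC content was 0.18 in animal 49 and between -0.50 and -0.37 in animals 50 to 54, against -0.30 to 0.39 in the controls. When these genes were put in 5 equal bins by GC content, the lowest bin had a median log2 fold change of 0.09 at 1 g/L and the highest bin -0.23. Reads of the ribosomal RNA gene Rn45s made up 0.195% to 0.279% of counts in animals 50 to 54. They made up 1.25% in animal 49 and 0.329% to 1.57% in controls. Whether lane, library preparation or dose lies behind the GC differences was not tested. Because lanes were not balanced, effects of dose and of lane cannot be told apart by group alone. Beside the main values, the text gives a fit with a GC correction and the position of animal 49, the 1 g/L library that shared the controls' lane. Libraries at 2 and 3.5 g/L were in lanes L3 and L4.

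**Figure D1:**
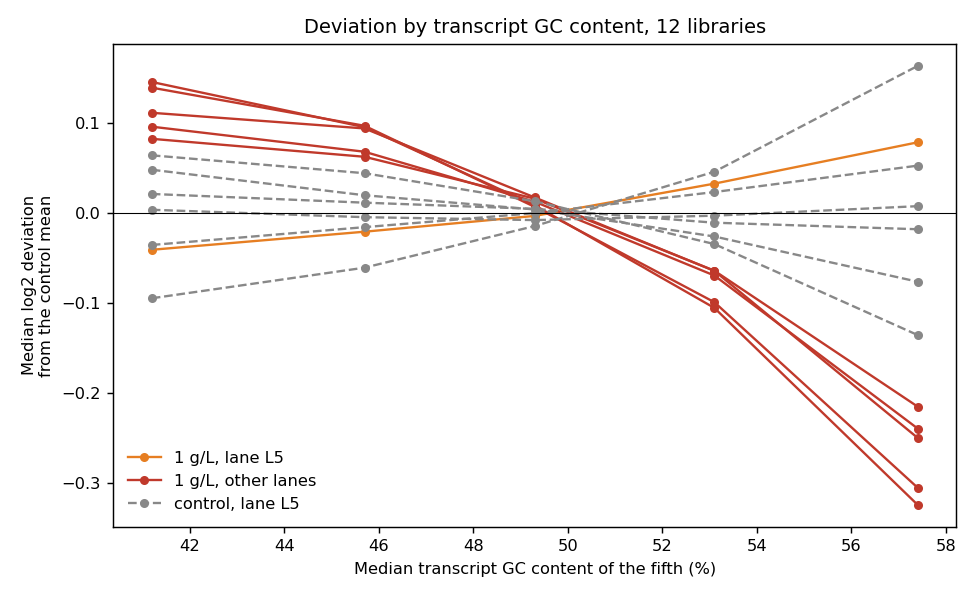
Median log2 deviation from the control mean (y) of genes in 5 equal bins of transcript GC content (x, median GC percent of the bin), 1 line per library. In the highest GC bin, animals 50 to 54 sat between -0.32 and -0.21, and animal 49 at 0.08 lay within the control lines, which spanned -0.14 to 0.16.

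The Cyp4a genes were not called at 1 g/L. Values below are CPM, counts scaled to a common library size by the trimmed mean of M values (TMM), which compare libraries for 1 gene and not genes with each other. Folds are log2 ratios of 1 g/L to control, with 6 libraries per group. Their standard error (SE) comes from the fit of all 24 frozen DCA libraries, whose 4 dose groups share 1 estimate of spread per gene. A gene is called at an adjusted p under 0.05 from edgeR's quasi-likelihood test with Benjamini-Hochberg adjustment over all 13089 genes tested. Cyp4a14 (chromosome 4:115486200-115496142 in GRCm38) had 3.45, 11.2 and 29.4 CPM (lowest, median, highest) at 1 g/L, against 0.224, 3.19 and 13.2 CPM in controls. The groups overlapped, with 3 of 6 treated libraries above every control, and the log2 fold change of 1.42 ± 0.56 had an adjusted p of 0.0993 and a 95% interval of 0.26 to 2.58, which is not adjusted for the number of genes. This value turned on single libraries: it was called without control 4 (2.12, adjusted p = 0.0229) and without animal 49 (1.62, adjusted p = 0.0467), and animal 49 lay only 0.15 above the control mean.

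Cyp4a10 had 5.98, 23.3 and 59.7 CPM at 1 g/L, against 1.72, 10.5 and 43.1 CPM in controls, a log2 fold change of 0.77 ± 0.52 (adjusted p = 0.35). Cyp4a31 gave 0.85 ± 0.52, Cyp4a12b 0.49 ± 0.33, Cyp4a32 0.10 ± 0.24 and Cyp4a12a 0.08 ± 0.18, none of them called. Exact 2-sided permutation tests over the 12 libraries gave the smallest p for Cyp4a14 (0.0714, 0.247 adjusted over the 6 genes). At the higher doses Cyp4a14 and Cyp4a10 differed by orders of magnitude. Cyp4a14 reached medians of 3168 CPM at 2 g/L and 5057 CPM at 3.5 g/L, and Cyp4a10 reached 2466 and 3759 CPM. The family was not uniform: at 3.5 g/L against controls, log2 fold changes were 6.47 for Cyp4a31, 3.11 for Cyp4a32 and 1.34 for Cyp4a12b. Cyp4a12a was not called there (0.09). Reads of near-identical Cyp4a copies are shared out by the counting model, so single-copy values are uncertain.

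Few of the peroxisomal enzymes that respond with the Cyp4a genes were called. Ehhadh, which carries out 2 steps of peroxisomal beta-oxidation, had 174, 222 and 239 CPM at 1 g/L, against 134, 170 and 196 CPM in controls. Treated libraries were above every control in 5 of 6, and the log2 fold change of 0.36 ± 0.30 was not called (adjusted p = 0.46). In a fit of the 12 libraries alone, which does not take in the wide spread at 2 g/L, Ehhadh was called (0.38, adjusted p = 0.0359). The acyl-CoA thioesterase Acot1 gave 0.26 ± 0.45 and was not called. Among 23 tested genes of peroxisomal fatty acid oxidation 1 rose (Crot) and none fell, and among 24 of mitochondrial fatty acid oxidation none rose and 2 fell (Acads and Acadvl). None of these 3 was called after GC correction. These counts stand against 4.11% of all tested genes called higher and 7.01% called lower.

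**Figure D2:**
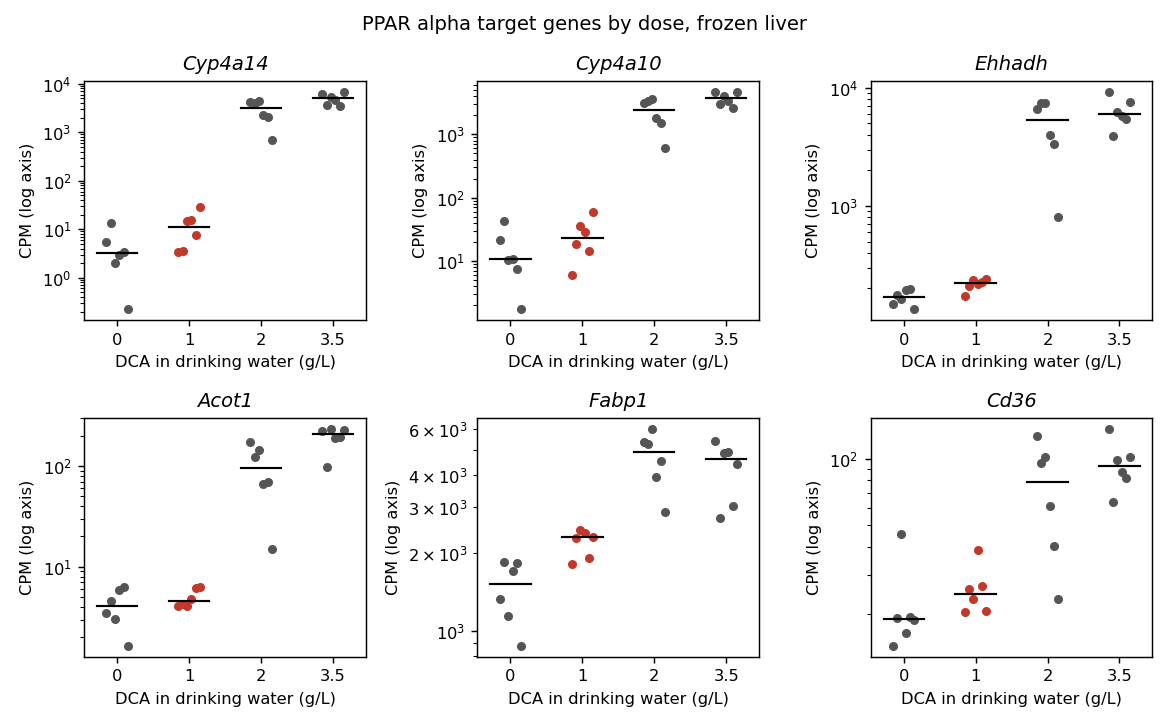
CPM on a log axis (y) of 6 PPAR alpha target genes in each frozen library by DCA dose (x), with 6 libraries per dose, 1 g/L in red and group medians as lines. Cyp4a14 medians were 3.19, 11.2, 3168 and 5057 CPM from 0 to 3.5 g/L, and the 1 g/L points of all genes shown lie below most points at 2 g/L. Of the 6 points at 1 g/L, 5 lie above every control for Ehhadh and for Fabp1, and 3 for Cyp4a14. That number is 1 for Cyp4a10 and for Acot1, and 0 for Cd36.

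Of the other PPAR alpha targets, 2 of 24 rose and 4 fell. Fabp1, the liver fatty acid binding protein, had 1807, 2299 and 2455 CPM at 1 g/L, against 874, 1517 and 1846 CPM in controls, and rose by a log2 fold change of 0.59 ± 0.19 (adjusted p = 0.0439). That call was lost when any of controls 3, 5, 6 or 8 or any of animals 50 to 54 was left out (adjusted p = 0.0517 to 0.0969), and after GC correction (0.52, adjusted p = 0.0835). Plin5, a lipid droplet protein that tethers droplets to mitochondria, had 13.6, 19 and 29.9 CPM at 1 g/L, against 24.3, 35.5 and 39.8 CPM in controls, and fell by 0.73 ± 0.16 (adjusted p = 0.00518). Animal 49 was the least affected library, 0.13 below the control mean, and Plin5 has a GC content of 58.9%; the fall after GC correction was smaller (-0.48, adjusted p = 0.038) and was not called when animals 53 and 54 were left out as well (adjusted p = 0.117). Angptl4, Slc25a42 and Vnn3 also fell and Cidec rose. The fatty acid transporter Cd36 (0.21 ± 0.32) and the kinase Pdk4 (-0.54 ± 0.52), both induced in fasting, were not called, and control 5 stood above the other controls for each. Without control 5, Pdk4 gave 0.28 and Cd36 gave 0.56, still not called.

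Across all genes, 1455 of 13089 (11.1%) were called at 1 g/L, 538 of them higher (4.11%) and 917 lower (7.01%). Most changes were small: the median absolute log2 fold change of called genes was 0.40, and 132 changed at least 2-fold, 17 higher and 115 lower. All 6 treated libraries lay beyond every control in 518 of all tested genes (3.96%), and 433 of these were called. Calls and separation rest on the same libraries, so their overlap is no separate support. Base composition differed with the calls, with a median GC content of 55.0% in genes called lower, 45.4% in genes called higher and 49.1% in the rest. With the GC correction, 951 of 12463 genes (7.63%) were called, 380 higher (3.05%) and 571 lower (4.58%). Of these, 739 were also called without the correction, none in the opposite direction. Single libraries moved the count of 1455 to 863 without control 3, 870 without animal 51, 899 without animal 54, 960 without animal 52 and 2317 without animal 49. With sequencing run as a term 510 genes were called. The other run holds only animals 53 and 54, so in that fit the 1 g/L value rests on animals 49 to 52. A run term cannot separate lane L5 from lane L6, and it also removes 2 treated animals from the comparison. Within lane L5, animal 49 alone stood against the 6 controls and was assumed to vary as they did, and 7 genes were called, Lpin1 and Fkbp5 among them. In all 12 fits that left out a library, 642 genes were called, 214 higher and 428 lower, and 338 of them were also called both with sequencing run as a term and with the GC correction. Genes given with values in the rest of the text are in the first of these sets unless a lost call is stated. Counts of called list members below stand beside 4.11% of all tested genes called higher and 7.01% called lower. The largest rises and falls were named only among genes whose groups did not overlap. Among them are Lpin1, Fkbp5, Zbtb16, Ppargc1a, Nr1d1, Nr1d2, Bhlhe40, Apoc2, C4b, Herpud1, Adh4 and Lrtm1. Their separation is a condition of the choice and not added support.

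Of 14 tested genes that glucocorticoids induce, 7 fell and none rose, and the list's median log2 fold change was -1.21, beside -0.012 over all tested genes. With GC correction the list median was -1.17, and in animal 49 the members' median deviation from the control mean was -0.59. The 7 were Lpin1, Per1, Zbtb16, Fkbp5, Pck1, Tat and Tsc22d3, and the first 5 kept their call in all 12 fits that left out a library, with run as a term and with GC correction. Lpin1, a phosphatidate phosphatase and transcriptional co-regulator of fasting liver, had 43.9, 81.3 and 94.5 CPM at 1 g/L, against 348, 458 and 830 CPM in controls. Every treated library was below every control by a wide margin, and the fall of 2.72 ± 0.21 on the log2 scale (6.60-fold lower, adjusted p = 1.21e-08) was the strongest by adjusted p among the named genes. It did not change with GC correction (-2.72, adjusted p = 1.18e-08), and animal 49 was the lowest library, 3.44 below the control mean.

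Fkbp5, an immunophilin that restrains the glucocorticoid receptor and is itself induced by it, had 13.5, 22.9 and 27.3 CPM at 1 g/L, against 44.0, 54.4 and 73.8 CPM in controls. The groups did not overlap, and Fkbp5 fell by 1.36 ± 0.16 (adjusted p = 1.14e-05). Animal 49 was again the lowest, 2.01 below the control mean. Zbtb16, a zinc-finger repressor, had 27.5, 40.5 and 53.3 CPM at 1 g/L, against 63.2, 104 and 152 CPM in controls. These groups did not overlap either, and Zbtb16 fell by 1.41 ± 0.20 (adjusted p = 0.000114). Per1, a clock gene with a strong early response to glucocorticoids and cyclic AMP, was chosen after its values were seen. It had 1.56, 3.60 and 9.16 CPM at 1 g/L, against 7.77, 14.4 and 42.5 CPM in controls, and fell by 2.28 ± 0.39 (adjusted p = 0.000779). Animal 49 was the single treated library that reached the control range.

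Of 26 tested genes of glucose and glycogen metabolism, 10 fell and none rose, with a list median of -0.14. The gluconeogenic enzymes and their co-activator were among them, and 7 of the 10 were called in each of the 12 fits that left out a library. Pck1, the enzyme that commits oxaloacetate to gluconeogenesis (chromosome 2), had 833, 1025 and 1690 CPM at 1 g/L, against 1500, 2204 and 3251 CPM in controls. Treated libraries were below every control in 5 of 6, the exception being animal 49, and Pck1 fell by 1.05 ± 0.18 (2.07-fold lower, adjusted p = 0.00071; with GC correction -0.997, adjusted p = 0.000664). Ppargc1a, the co-activator that raises gluconeogenesis and mitochondrial biogenesis, had 10.5, 11.1 and 11.5 CPM at 1 g/L, against 16.4, 20.0 and 58.1 CPM in controls. The treated libraries were tightly grouped below all controls, and Ppargc1a fell by 1.41 ± 0.23 (adjusted p = 0.000396).

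Pcx, pyruvate carboxylase, which feeds pyruvate into gluconeogenesis, fell by 0.58 ± 0.09 (adjusted p = 0.00031), and Pfkl, the liver phosphofructokinase of glycolysis, fell by 0.49 ± 0.08 (adjusted p = 0.000379). Both have a GC content above 57% and fell less after GC correction (-0.37 and -0.31), where they were still called. G6pc, which releases free glucose, had 148, 209 and 308 CPM at 1 g/L, against 244, 355 and 460 CPM in controls, and fell by 0.68 ± 0.20 (adjusted p = 0.0316). Its call was lost without control 3, 4 or 5 or without animal 52, 53 or 54 (adjusted p = 0.0573 to 0.0805), and with run as a term (adjusted p = 0.167). Gckr, Pfkfb1, Foxo1 and the glycogen-targeting subunits Ppp1r3b and Ppp1r3g were the other members that fell. Liver glycogen synthase (Gys2, 0.03 ± 0.12) was not called. Foxo3, a forkhead factor that insulin keeps out of the nucleus, fell by 0.72 ± 0.13 (adjusted p = 0.0015). It was 1 of 4 falls among 13 insulin-responsive genes, and the others, Pck1, G6pc and Foxo1, also stand in the glucose list. The insulin list had a median of -0.14, and with GC correction 4 members fell, 1 rose and the median was -0.01.

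The promoters of the called members of the glucocorticoid and glucose lists were read for the core of the cyclic AMP response element, TGACGT or its reverse complement ACGTCA, a motif chosen after the members were known. In the 250 bases before a start site in the RefSeq table (GRCm38.p6), 4 of the 14 called members with an entry held it (28.6%), 3 of the 19 members not called did (15.8%), and 1971 of all 27025 genes in the table did (7.29%). A match is a description of these letters and not evidence of binding. The 4 called members with the motif were Pck1, Ppargc1a, Per1 and Ppp1r3g. Lpin1, Fkbp5 and Zbtb16 were not among them. The window of Ppp1r3g is not shown. The upstream windows of Pck1 (chr2:173152823-173153072, plus strand), Ppargc1a (chr5:51567726-51567975, minus strand) and 1 start of Per1 (chr11:69099902-69100151, plus strand) are shown, written 5′ to 3′ with the motif in capitals.
Pck1: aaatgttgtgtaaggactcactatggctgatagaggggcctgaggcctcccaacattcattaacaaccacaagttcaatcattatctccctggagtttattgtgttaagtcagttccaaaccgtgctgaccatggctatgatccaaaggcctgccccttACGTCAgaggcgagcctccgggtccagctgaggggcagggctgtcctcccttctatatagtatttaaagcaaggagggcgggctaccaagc
Ppargc1a: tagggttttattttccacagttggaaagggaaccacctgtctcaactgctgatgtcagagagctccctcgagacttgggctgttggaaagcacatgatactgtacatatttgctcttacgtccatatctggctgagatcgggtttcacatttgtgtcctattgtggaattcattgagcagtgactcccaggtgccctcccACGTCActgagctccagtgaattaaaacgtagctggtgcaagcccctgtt
Per1: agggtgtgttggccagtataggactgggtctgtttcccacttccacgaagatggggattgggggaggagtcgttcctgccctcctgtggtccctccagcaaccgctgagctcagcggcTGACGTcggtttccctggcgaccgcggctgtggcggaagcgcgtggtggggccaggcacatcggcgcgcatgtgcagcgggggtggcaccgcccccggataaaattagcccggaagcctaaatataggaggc
The motif begins 91 bases before the start in Pck1, 50 in Ppargc1a and 132 in Per1.

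Among 19 tested clock genes and outputs 2 rose and 2 fell, and all 4 were called in each fit that left out a library. Nr1d1 (Rev-erb alpha), a haem-binding nuclear receptor that represses Arntl and other clock genes, had 13.9, 15.6 and 23.1 CPM at 1 g/L, against 5.54, 6.51 and 9.99 CPM in controls. The groups did not overlap, which the naming rule required, and Nr1d1 rose by 1.23 ± 0.21 (2.35-fold, adjusted p = 0.000622). Its partner Nr1d2 (Rev-erb beta) had 28.3, 35.2 and 42.1 CPM at 1 g/L, against 15.5, 19.5 and 22.6 CPM in controls. It too was separated from the controls and rose by 0.87 ± 0.15 (adjusted p = 0.00104). Animal 49 lay 1.27 above the control mean for Nr1d1 and 0.68 above it for Nr1d2. Bhlhe40, a basic helix-loop-helix repressor of the clock, had 16.2, 19.1 and 23.6 CPM at 1 g/L, against 33.4, 63.7 and 85.9 CPM in controls, and fell by 1.67 ± 0.25 (adjusted p = 0.000183). The fourth gene was Per1. The other 15 genes of the list were not called, and the list median was 0.04.

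**Figure D3:**
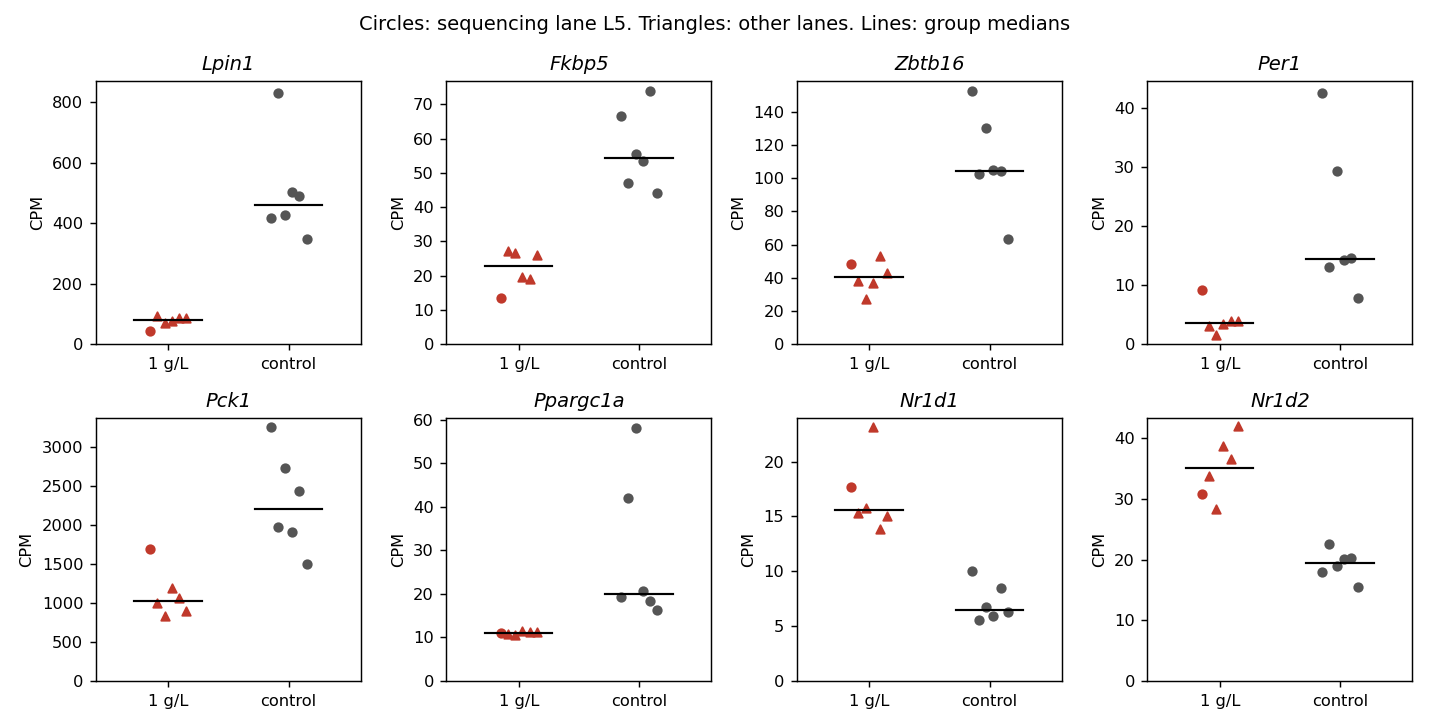
CPM (y, linear axis from 0) of 8 genes in the 6 libraries at 1 g/L and the 6 controls (x), with medians as lines, circles for lane L5 and triangles for other lanes. Lpin1 sat between 43.9 and 94.5 CPM at 1 g/L and between 348 and 830 CPM in controls, and the 1 g/L circle (animal 49) reaches the control range for Pck1 and Per1.

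Cholesterol synthesis and uptake was the lipid pathway with the most falls. Of 23 tested members 8 fell and none rose, with a list median of -0.39 (6 fell with GC correction, median -0.31), and 6 of the 8 were called in each fit that left out a library. The sterol-responsive factor Srebf2 had 28.6, 33.7 and 41.8 CPM at 1 g/L, against 42.1, 47.5 and 65.2 CPM in controls, and fell by 0.55 ± 0.11 (adjusted p = 0.00428). Mvk, mevalonate kinase, fell by 0.60 ± 0.12 (adjusted p = 0.00361), and all 6 treated libraries were below every control for both genes. Animal 49 lay below the control mean by 0.53 for Mvk and 0.22 for Srebf2. Tm7sf2 and Fdps were also among the members that fell. In the GC-corrected fit without animals 53 and 54, 1 member of the list was called.

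Fatty acid and triglyceride synthesis gave 5 falls among 22 tested genes (Lpin1, Acacb, Fasn, Dgat2 and Fads1) and no rise, and Lpin1 alone was called after GC correction. Apoc2, the cofactor that lipoprotein lipase needs to clear triglyceride, was the rise with the smallest adjusted p among the named genes. It had 198, 203 and 222 CPM at 1 g/L, against 109, 135 and 157 CPM in controls, and rose by 0.64 ± 0.07 (adjusted p = 3.06e-06; with GC correction 0.81, adjusted p = 8.24e-06). The treated libraries were nearly level and all above the controls, and animal 49 lay 0.61 above the control mean. Apob, the structural protein of very-low-density lipoprotein, had 17710, 19270 and 20450 CPM at 1 g/L, against 20240, 23880 and 29990 CPM in controls, and fell by 0.35 ± 0.08 (adjusted p = 0.00791).

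The called genes of the acute phase and complement list and of the interferon list were all lower at 1 g/L. Of 23 tested acute phase and complement genes 5 fell and none rose, and the list median was -0.43. Over all tested genes 7.01% were called lower. With GC correction 5 fell and the median was -0.31, and in animal 49 the members' median deviation from the control mean was -0.13. C4b, complement component 4, had 544, 603 and 838 CPM at 1 g/L, against 1088, 1349 and 1683 CPM in controls, and fell by 1.10 ± 0.14 (adjusted p = 4.28e-05). All treated libraries were below all controls, with animal 49 apart from the other 5 and nearest to the controls. C3, on which the complement pathways converge, had 5232, 6185 and 7238 CPM at 1 g/L, against 8754, 10700 and 13740 CPM in controls. It fell by 0.82 ± 0.13 (adjusted p = 0.000327), and animal 49 lay 0.79 below the control mean. Cfb, Itih3 and Itih4 were the other members that fell. In the interferon list 4 of 25 fell, among them Irf7 (-0.73 ± 0.18, adjusted p = 0.0108) and the ubiquitin-like modifier Isg15 (-0.77 ± 0.19, adjusted p = 0.0115). The list median was -0.16, and with GC correction 3 fell and the median was -0.09. With run as a term the fall of Irf7 was about as large and was not called (-0.69, adjusted p = 0.0524). Socs3, the feedback inhibitor of cytokine receptors, fell by 1.12 ± 0.28 (adjusted p = 0.013), with animal 49 only 0.15 below the control mean.

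Chaperone genes fell in 2 lists, beside 7.01% of all tested genes called lower. Among 12 heat shock genes 3 fell (Hspa1a, Hspa1b and Dnajb1), with a list median of -0.09. Hspa1b, an inducible cytosolic Hsp70, had 2.57, 5.20 and 21.6 CPM at 1 g/L, against 18.8, 60.8 and 73.2 CPM in controls, and fell by 2.65 ± 0.44 (adjusted p = 0.000584). Animal 49 was the 1 treated library within the control range. Hspa1a summed to 36 reads in the 6 treated libraries, against 472 reads in the 6 controls, and fell by 3.71 ± 0.65 (adjusted p = 0.00099). The groups overlapped: the treated libraries had 2 to 8 reads, against 2 reads in control 8 and 53 to 196 in the other controls. The Hsp70 pair is near-identical in sequence, so the split of reads between the copies is uncertain. In the endoplasmic reticulum, Herpud1, a component of the degradation machinery for misfolded proteins, had 143, 176 and 263 CPM at 1 g/L, against 279, 404 and 666 CPM in controls. It fell by 1.16 ± 0.23 (adjusted p = 0.00257) with no overlap of the groups, and animal 49 lay 0.96 below the control mean. Of the 16 tested folding genes 4 fell (Herpud1, Dnajb9, Pdia6 and Pdia3) and none rose, with a list median of -0.38, and Herpud1 alone was called in every fit that left out a library.

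Egr1, an immediate early transcription factor, was the largest rise among the named genes. It had 4.00, 26.1 and 44.6 CPM at 1 g/L, against 1.39, 2.22 and 6.75 CPM in controls, and rose by 3.00 ± 0.52 (8.01-fold, adjusted p = 0.000779). Treated libraries were above every control in 5 of 6. It was the 1 called member among 10 tested immediate early genes, and Myc was not called (0.84 ± 0.46). Adh4, a class II alcohol dehydrogenase that also oxidises retinol, had 159, 172 and 208 CPM at 1 g/L, against 99.7, 109 and 146 CPM in controls. It rose by 0.64 ± 0.09 (adjusted p = 7.88e-05) without overlap, and control 8 stood above the other controls. The spindle-orientation gene Gpsm2 rose by 0.60 ± 0.09 (adjusted p = 0.000298) and the tRNA-modifying enzyme Trit1 by 0.56 ± 0.11 (adjusted p = 0.00396).

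Other genes that the naming rule took as largest rises were Plscr1, a phospholipid scramblase (0.73 ± 0.19, adjusted p = 0.0156), the glucuronosyltransferase Ugt2b35 (0.64 ± 0.16, adjusted p = 0.0131) and the carboxylesterase Ces2c (0.87 ± 0.25, adjusted p = 0.0273). With run as a term the log2 fold changes were about as large (0.73 for Plscr1, 0.60 for Ugt2b35 and 0.88 for Ces2c), and none of the 3 was called (adjusted p = 0.0509 to 0.0718). Ces2c also lost its call without control 5 or 6 or without animal 50 or 51 (adjusted p = 0.0526 to 0.0659), and it belongs to a family of close copies. Among the largest falls, Lrtm1, a leucine-rich repeat membrane protein, had 10.3, 10.8 and 13.0 CPM at 1 g/L, against 21.9, 27.3 and 37.8 CPM in controls, and fell by 1.33 ± 0.19 (adjusted p = 0.000157). Adam11 fell by 1.13 ± 0.18 (adjusted p = 0.000476) and Dpm3, a subunit of dolichol-phosphate mannose synthase, by 1.01 ± 0.19 (adjusted p = 0.00233). Both are low, with medians of 2.86 and 3.41 CPM at 1 g/L, against 6.71 and 6.21 CPM in controls. Animal 49 lay less far from the control mean (-0.47 and -0.35) than the mean of the other 5 treated libraries did (-1.14 and -1.06).

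The genes of the enzyme complex that DCA acts on were not called. None of 14 tested genes of pyruvate dehydrogenase and pyruvate import was called, and the list median was -0.05. With GC correction 1 of them fell, the phosphatase Pdp2 (-0.34, adjusted p = 0.0489). Of the kinases that DCA inhibits, Pdk1 gave 0.14 ± 0.13, Pdk2 -0.20 ± 0.12 and Pdk3 -0.03 ± 0.35, none called. Gstz1, the glutathione transferase that both metabolises DCA and is inactivated by it, had 453, 466 and 515 CPM at 1 g/L, against 403, 414 and 476 CPM in controls. It was called higher by 0.18 ± 0.06 (adjusted p = 0.0461), but the groups overlapped, and the call was lost with GC correction (0.12, adjusted p = 0.167) and without any of controls 3, 4, 5, 6 or 8 or animals 50 to 54 (adjusted p = 0.0515 to 0.108). Hpd, which acts earlier in tyrosine breakdown, was not called (-0.11 ± 0.07).

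Among 20 tested targets of the xenobiotic receptors CAR and PXR, Por fell and none rose, and with GC correction Por and Sult1d1 fell. Por, the reductase that passes electrons to all microsomal P450 enzymes, had 57.4, 67.4 and 85.8 CPM at 1 g/L, against 104, 116 and 151 CPM in controls. It fell by 0.83 ± 0.13 (adjusted p = 0.000327) with no overlap, and had a log2 fold change of -0.57 with GC correction (adjusted p = 0.00813). Cyp2b10 (-0.88 ± 0.56) and Cyp3a11 (0.38 ± 0.23) were not called, nor were Cyp7a1, which starts bile acid synthesis (0.65 ± 0.40), Fgf21 (0.48 ± 0.65), Cyp4f14 (-0.07 ± 0.11), Cyp4v3 (-0.08 ± 0.13) or the cyclin Ccnd1 (0.05 ± 0.20). Of 20 NRF2 targets Ugt2b35 alone was called. None of 26 cell cycle genes (list median 0.31) and none of 15 p53 targets and growth arrest genes was called. An unadjusted p under 0.05 was reached by 3662 of all tested genes.

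The lists of sex-biased genes, the growth hormone axis, bile acids and stress gave 1 or 2 calls each. Over all tested genes 4.11% were called higher and 7.01% lower, and a single call in so short a list is near those shares. Of 17 male-biased liver genes 1 rose (Mup20, a major urinary protein, by 1.39 ± 0.44, adjusted p = 0.043), and of 9 female-biased genes 1 fell (the steroid hydroxylase Cyp17a1, by 2.00 ± 0.56, adjusted p = 0.0247). Mup20 was no longer called once sequencing run entered the fit (1.55, adjusted p = 0.0654), after GC correction (1.32, adjusted p = 0.0656) and when any of controls 3, 6 or 8 or animals 49 to 54 was left out (adjusted p = 0.0506 to 0.102). The call of Cyp17a1 was lost without control 8 (-1.34, adjusted p = 0.0822) and without animal 51, 52 or 53 (adjusted p = 0.05 to 0.0591). In the growth hormone axis 2 of 11 fell, Socs3 and Stat5b. Of 17 genes of bile acid synthesis and transport the receptor Nr1h4 rose and Cyp27a1 fell, and of 10 genes of the integrated stress response Psat1 rose and Ddit3 fell. In tyrosine breakdown, Tat fell beside the rise of Gstz1, with no call among the other 6 of 8. Cyp1a2 was the 1 of 6 AhR targets that fell, and Cyp4f13 the 1 of 10 Cyp4 genes. Apart from Socs3, no gene of these lists was called in all 12 fits that left out a library.

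Albumin was not called, and some zonal markers fell, more of them on the central than on the portal side. Albumin (Alb) had 54170, 65010 and 69590 CPM at 1 g/L, against 60900, 74000 and 81500 CPM in controls (-0.21 ± 0.11). Of 12 secreted hepatocyte proteins 5 fell (Apob, Serpinc1, Trf, Gc and Apoa1) and none rose, Serpinc1 by 0.25 ± 0.06 (adjusted p = 0.00864). Of 12 pericentral markers 6 fell, among them the Wnt feedback gene Axin2 by 0.82 ± 0.12 (adjusted p = 0.000188) and the glutamate transporter Slc1a2 by 0.45 ± 0.09 (adjusted p = 0.00254). Of 13 periportal markers 3 fell and 10 were not called. Sds, serine dehydratase, fell by 1.16 ± 0.25 (adjusted p = 0.00612). Pck1, another of the 3, also stands in the glucocorticoid, glucose and insulin lists. With GC correction 5 pericentral markers fell (list median -0.305) and 2 periportal markers (list median -0.07). Every fit that left out a library called 3 pericentral markers (Oat, Slc1a2 and Axin2) and 2 periportal ones (Pck1 and Sds). In bulk liver, fewer cells of a type and less RNA per cell cannot be told apart.

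No marker of other cells was called in every fit that left out a library. The counts below stand beside 7.01% of all tested genes called lower and 4.11% called higher. For Kupffer cells 2 of 11 fell (C1qa and C1qc, neither with GC correction), and the summed marker level was 260.5 to 316 CPM at 1 g/L, against 302 to 411 CPM in controls. For stellate cells 2 of 12 fell (Des and Col1a2), with sums of 559 to 763 CPM at 1 g/L, against 689 to 995 CPM in controls. Des rested on control 5, at 70.1 CPM where the other controls had 2.06 to 5.20 CPM: without it the log2 fold change was -0.43 (adjusted p = 0.236), against -2.53 with it. For red blood cells 3 of 7 fell (Hbb-bt, Hba-a2 and Slc4a1), and all 7 had a negative log2 fold change. With GC correction 1 of the 7 fell. Their sums were 491 to 869 CPM at 1 g/L, against 512 to 1417 CPM in controls. In sinusoidal endothelium 1 of 12 rose (Kdr) and in bile duct 1 of 5 fell (Krt19). No lymphocyte or neutrophil marker of 3 tested was called. No skeletal muscle marker was tested, and exocrine pancreas markers summed to under 1 CPM in every library. Whether these cells had a part in the changes described was not tested.

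**Figure D4:**
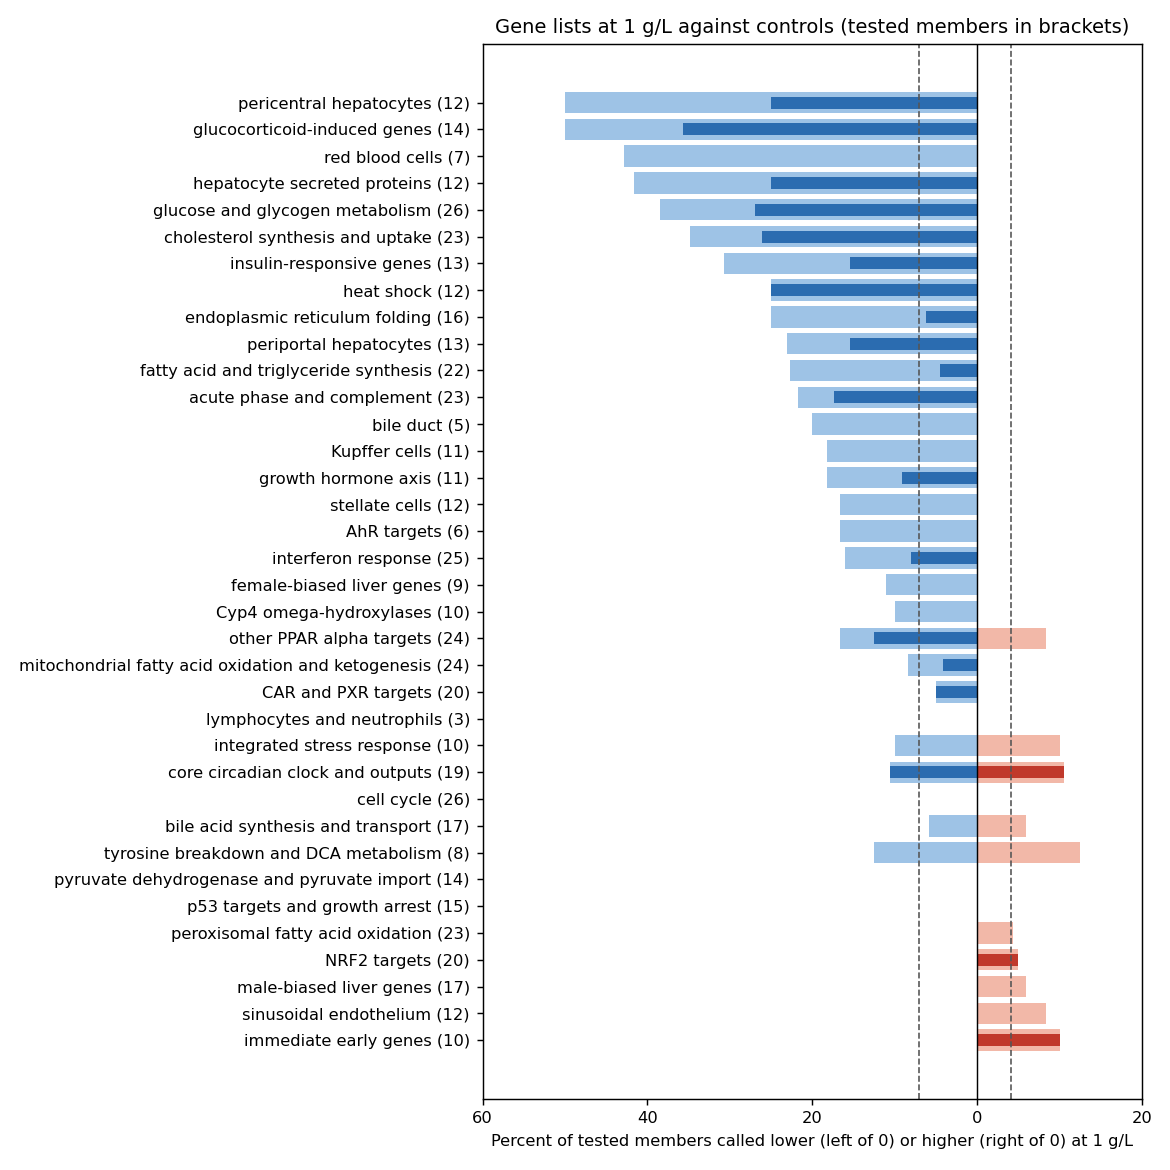
Percent of the tested members of each gene list (rows, number tested in brackets) called lower (left of 0) or higher (right of 0) at 1 g/L against controls. Pale bars show all calls, dark bars the members called in each of the 12 fits that left out a library, and dashed lines the shares over all tested genes (7.01% lower, 4.11% higher). The glucocorticoid list reached 7 of 14 lower, 5 of them dark.

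Followed over the doses, the genes called at 1 g/L took different courses. Against 1 g/L, 2165 genes (16.5%) were called at 2 g/L, 1296 higher (9.9%) and 869 lower (6.64%), and 1138 when the 3 shallow libraries at 2 g/L were left out. At 3.5 g/L 3250 (24.8%) were called against 1 g/L, 1907 higher (14.6%) and 1343 lower (10.3%). These comparisons share the 1 g/L libraries with the one above. Lpin1 was already near its level at higher doses: medians from 0 to 3.5 g/L were 458, 81.3, 52.6 and 62.6 CPM, and the differences from 1 g/L (-0.48 ± 0.21 at 2 g/L and -0.16 ± 0.20 at 3.5 g/L) were not called. Adh4, with medians of 109, 172, 165 and 159 CPM, was likewise not called against 1 g/L.

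Other genes went on in the same direction. Nr1d1 had medians of 6.51, 15.6, 51.5 and 68.6 CPM from 0 to 3.5 g/L and was higher than at 1 g/L by 1.61 at 2 g/L (adjusted p = 2.26e-06) and by 2.16 at 3.5 g/L (adjusted p = 5.33e-09). Zbtb16 had medians of 104, 40.5, 23.6 and 21.1 CPM and differed from 1 g/L by -0.77 (adjusted p = 0.0133) and -0.84 (adjusted p = 0.00281). Lrtm1 had medians of 27.3, 10.8, 1.62 and 0.955 CPM, the steepest of these courses, and differed from 1 g/L by -2.47 (adjusted p = 6.09e-07) and -3.42 (adjusted p = 5.68e-10). C4b was called against 1 g/L at 3.5 g/L (-1.11, adjusted p = 9.58e-07) and not at 2 g/L (-0.31, adjusted p = 0.125).

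Another course turned back: the level was lower at 1 g/L than both in controls and at higher doses. Bhlhe40 had medians of 63.7, 19.1, 43.8 and 44.4 CPM from 0 to 3.5 g/L and was higher than at 1 g/L by 1.25 at 2 g/L (adjusted p = 0.0011) and by 1.21 at 3.5 g/L (adjusted p = 0.000614). Por and Plin5 took the same course, with medians of 116, 67.4, 138 and 164 CPM for Por and of 35.5, 19, 41.6 and 54.8 CPM for Plin5. These medians carry no GC correction. The transcripts of Por and Plin5 have GC contents of 58.3% and 58.9%, and that of Bhlhe40 49.4%. The rank correlation of a library's deviation with GC content was -0.50 to -0.37 in animals 50 to 54. It was -0.19 to 0.094 at 2 g/L and -0.34 to -0.13 at 3.5 g/L, so GC-rich transcripts were read differently at 1 g/L. How far the different lanes of the doses enter these courses was not tested gene by gene.

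**Figure D5:**
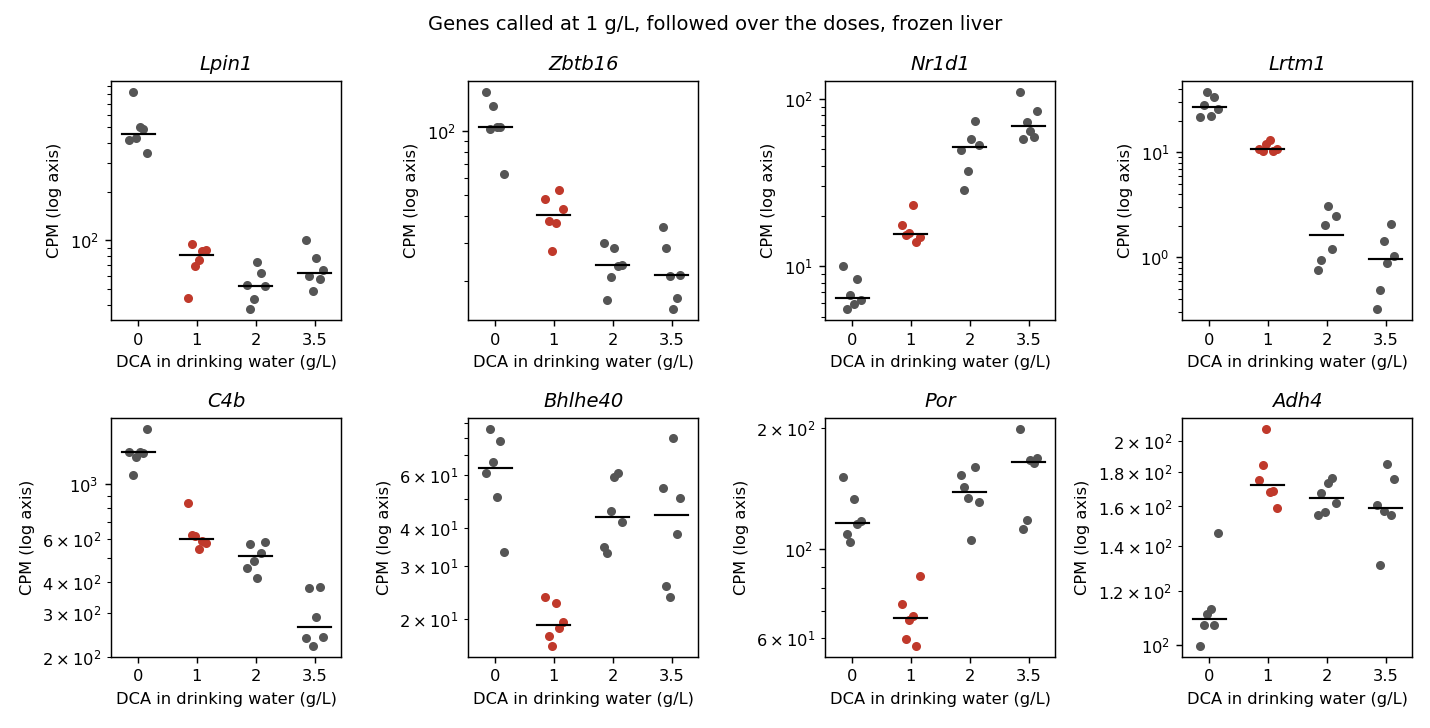
CPM on a log axis (y) of 8 genes called at 1 g/L, by DCA dose (x), with 6 libraries per dose, 1 g/L in red and medians as lines. Bhlhe40 and Por are lowest at 1 g/L, with medians of 19.1 and 67.4 CPM, Nr1d1 is higher at each dose, and Lpin1 lies between 37.5 and 100 CPM in all treated libraries.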

How the data were processed

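The series holds 80 liver libraries, of which the 24 frozen DCA libraries in 4 dose groups (6 animals each, 1 library per animal) were fitted. Per the labels' protocols, RNA from about 20 mg of tissue was depleted of ribosomal RNA and 100 ng entered a stranded library kit. The deposited values are RSEM expected counts per gene, made by the authors from STAR 2.4 alignments to mm10 per the submitters' processing notes; the annotation and counting options are not given in the sources used here. RSEM shares reads among similar genes. The authors' other deposited table of raw gene counts for frozen livers, whose values are likewise not all whole, served as an alternative.

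Expected counts of 17672 genes were rounded to whole numbers. Genes with low counts were removed with filterByExpr (minimum count 10), leaving 13089, and libraries were scaled by TMM. edgeR 4.0.16 (quasi-likelihood test, limma 3.58.1, R 4.3.3) gave 2-sided p-values with Benjamini-Hochberg adjustment over all genes tested, and called genes had an adjusted p under 0.05. CPM per library used TMM sizes, and values on a log2 scale per library had a pseudocount of 0.5. The fitting code was tested on simulated counts with known changes. Total counts set only the counting error, and p-values rest on the spread between animals.

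Genes were named by a fixed rule: the 10 largest rises and 10 largest falls among called genes whose log2 CPM averaged 2 or more and whose 6 treated libraries all lay beyond every control, passing over predicted and clone symbols; the 2 called members of smallest adjusted p in each of 40 lists; and 30 fixed genes. Some genes these criteria take are not reported here. Per1 was added after its values were seen, and other called list members are named to complete a count. Comparison, lists and rule were chosen with earlier results of these data known. Skeletal muscle and mitochondrial genome lists had no tested member, and none of 2 adipocyte genes and 1 exocrine pancreas gene was called.

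Alternatives were DESeq2 1.42.0, other scalings and filters, 12 libraries alone, single libraries left out, sequencing run as a term, and lane L5 alone. The run and lane are those in the column names. A GC correction, a per-library loess curve (span 0.5) of log2 deviation on the GC content of the longest GENCODE vM21 transcript, was added after seeing the data, also without animals 53 and 54. It covered 12463 genes (95.2%).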

Additional observations from a re-analysis of the deposited data

Results flagged for a closer look

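In 12 of 140 groups of 6 libraries, 1 library stood apart from the other 5 by its gap relative to the group's range (Dixon's test at 95%). Chance alone flags about 1 group in 20, or 7 of these. Control 5 stood apart for 3 genes. It had 38.76 CPM of Pdk4, where the other controls had 5.479 to 9.702 CPM, 45.7 CPM of Cd36 (others 14.3 to 19.35 CPM) and 70.13 CPM of the stellate and muscle gene Des (others 2.058 to 5.195 CPM). Control 7 was high for Cyp4a12b, at 43.16 CPM (others 19.98 to 23.73 CPM), and for Gstz1, at 476.5 CPM (others 402.8 to 421.8 CPM). Control 8 had 146.3 CPM of Adh4, where the other controls had 99.68 to 113.1 CPM, and 21.07 CPM of Cyp17a1 (others 3.088 to 6.037 CPM).

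Among the treated libraries, animal 49, which shared the controls' lane, was low for Pdk1 at 40.71 CPM (others 56.43 to 60.34 CPM) and high for C4b at 837.5 CPM (others 544.3 to 620.2 CPM). Animal 53 had 52.88 CPM of Pdk2 (others 40.91 to 43.18 CPM), and animal 54 had 5339 CPM of Cyp3a11 (others 1727 to 2558 CPM) and 4.548 CPM of Cyp17a1 (others 0.9471 to 1.501 CPM). Whether lane, tissue sampling or the animals themselves lie behind these values was not tested.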

How the results depend on the processing

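Of 1455 genes called at 1 g/L against controls, 345 had an adjusted p under 0.01 and 132 changed at least 2-fold. The count was 510 with sequencing run as a term, 7 within lane L5, 951 with GC correction, 475 with GC correction and without animals 53 and 54, and 863 to 2317 with single libraries left out. Scaling, filters, the other count table and the fit of 12 libraries gave 1232 to 1569 calls, DESeq2 gave 1789, and 56.7% to 63% of calls were lower under these settings. Against 1 g/L, 2165 genes were called at 2 g/L (1098 at adjusted p under 0.01, 280 at 2-fold, 1138 without the 3 shallow libraries) and 3250 at 3.5 g/L (2095 and 495). The causes were not tested, beyond fewer samples or a stricter threshold where a setting means that.

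Sign changes touched only genes that were not called. With run as a term, Gys2 gave -0.03022 and Myc -0.04538. Within lane L5 values were -1.408 for Cyp4a10, -0.4135 for Cyp4a14, -0.5061 for Cyp4a31, -0.2608 for Cyp4a32, -0.1977 for Cyp4a12a, -0.09911 for Cyp4a12b, -0.03634 for Acot1, -0.3009 for Pdk1, -0.0974 for Gys2, -0.136 for Cd36 and -0.2546 for Cyp3a11. GC correction gave Gys2 -0.00455, and without animals 53 and 54 also 0.03785 for Cyp4f14, 0.03309 for Hpd, -0.05974 for Gys2 and -0.03369 for Cyp3a11. Leaving out single libraries gave -0.001328 to 0.2382 for Cyp4a32, -0.1475 to 0.01806 for Cyp4v3, -0.9213 to 0.2806 for Pdk4, -0.2108 to 0.1264 for Pdk3, -0.04505 to 0.1111 for Gys2 and -0.03703 to 0.1547 for Ccnd1. GC correction without animals 53 and 54 ended 13 calls among the genes given with a fold change above, run as a term 9, GC correction 3 and lane L5 alone, with its 1 treated library, 44; list members named without values are not in these numbers. No paired analysis was possible because animals of different doses share no number; only the frozen and fixed libraries of 1 animal do, and the fixed ones were not analysed here.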
